A study of Homo sapiens with 10 samples.

Results

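The melanoma antigen (MAGE) cancer-testis genes MAGEB1, MAGEB2, MAGEB3, MAGEB4, MAGEA4, MAGEA10, MAGEA11, MAGEC1 and MAGEC2 were examined in discodermolide-sensitive and discodermolide-resistant human lung cells. They were selected on signal: MAGEB2 was much higher in the resistant line AD32 than in A549, and the question was whether its relatives moved with it. The difference of MAGEB2 between AD32 and A549 is therefore given as a description, with no test. The platform annotation assigns 8 of the 24308 probe sets on the array to these 9 genes. MAGEB2, MAGEB3, MAGEA4, MAGEA10, MAGEA11, MAGEC1 and MAGEC2 each have a probe set of their own, so 7 genes were measured singly. MAGEB4 and MAGEB1 share a probe set that names both, and their signals cannot be separated.

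Discodermolide is a natural product that stabilises microtubules, and A549 is a lung adenocarcinoma line. Total RNA was hybridised to 10 Affymetrix arrays, 1 per sample. A549 in 0.01% DMSO, labelled sensitive, gave 4 arrays, and A549 in 32 nM discodermolide, labelled senescent, gave 2. AD32, labelled resistant and kept in 32 nM discodermolide, gave 3. A line named AD32 4E-BP1, labelled sensitive and held in 0.01% DMSO, gave 1 array, so it has no spread of its own. The drug is thus present in every AD32 array and absent from the AD32 4E-BP1 and A549 DMSO arrays, while the second A549 group shares the dose of AD32. Replicates are called biological in the labels with no word on how the cultures were separated, so p-values measure the spread between these samples, which may be technical. The labels do not say whether AD32 is 1 clone.

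MAGE genes share a conserved MAGE homology domain. Type I members, the MAGEA, MAGEB and MAGEC subfamilies, lie on the X chromosome, are normally expressed in germ cells, and are held silent in most somatic tissues, in part by DNA methylation of their promoters; tumours often reactivate them. Type II members such as MAGED1 are expressed in many tissues. Several MAGE proteins bind RING-type ubiquitin ligases and alter their activity or their substrates. MAGEB1, MAGEB2, MAGEB3 and MAGEB4 form a small cluster on the short arm of X, whereas the MAGEA and MAGEC genes lie on the long arm.

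Because the members of the MAGEB cluster differed in signal, the RefSeq sequence before their start sites is shown. Each run is the 250 bases upstream of a RefSeq start (GRCh38.p14), written 5′ to 3′, with every CG dinucleotide, the substrate of DNA methylation, in capitals. Windows were found for 8 of the 9 genes.
MAGEB2, chrX:30215313-30215562 (+ strand): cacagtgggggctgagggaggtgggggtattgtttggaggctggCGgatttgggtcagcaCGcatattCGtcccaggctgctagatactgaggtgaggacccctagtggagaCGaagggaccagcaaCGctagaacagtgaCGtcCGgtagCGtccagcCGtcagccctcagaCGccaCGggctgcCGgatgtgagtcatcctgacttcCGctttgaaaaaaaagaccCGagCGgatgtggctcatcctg
MAGEB1, second start, chrX:30246896-30247145 (+ strand): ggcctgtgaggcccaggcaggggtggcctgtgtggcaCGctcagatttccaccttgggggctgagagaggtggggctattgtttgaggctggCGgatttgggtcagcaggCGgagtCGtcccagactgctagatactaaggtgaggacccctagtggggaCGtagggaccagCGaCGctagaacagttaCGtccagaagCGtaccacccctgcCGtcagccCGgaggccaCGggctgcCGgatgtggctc
MAGEB3, chrX:30230407-30230656 (+ strand): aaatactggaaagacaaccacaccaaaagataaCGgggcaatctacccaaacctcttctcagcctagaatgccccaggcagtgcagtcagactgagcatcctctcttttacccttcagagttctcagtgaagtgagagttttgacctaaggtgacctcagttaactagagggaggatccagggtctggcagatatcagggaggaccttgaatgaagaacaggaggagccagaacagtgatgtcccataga
MAGEB4, chrX:30241750-30241999 (+ strand): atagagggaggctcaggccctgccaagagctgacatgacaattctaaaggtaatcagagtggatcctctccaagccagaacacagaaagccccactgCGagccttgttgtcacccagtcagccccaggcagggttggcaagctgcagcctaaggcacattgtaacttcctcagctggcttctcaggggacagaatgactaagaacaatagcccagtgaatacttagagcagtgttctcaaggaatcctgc

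The MAGEB2 window held 15 CG dinucleotides and had a GC content of 59.2%. Of 35116 RefSeq windows of this length, 42.9% held as many, and the median window held 11 (quartiles 3 and 23). The windows of MAGEB3 and MAGEB4 held 1 each, and 14.7% of all windows held at most 1. MAGEB1 has 2 RefSeq starts. Its second window held 13 CG dinucleotides and was identical to that of MAGEB2 at 91.8% of 195 aligned bases, whereas its first held 1. By the same alignment the other member windows matched MAGEB2 at 64.4% to 78.3% of aligned bases. Bases opposite gaps are left out of these shares. Windows of other genes were not aligned, so the lower shares need not show relatedness. The letters CGGAAG or, on the other strand, CTTCCG are 1 form of the site bound by ETS transcription factors. Shorter or other forms of that site were not counted. This exact form occurred 1 time in the MAGEB2 window and 0 times in both windows of MAGEB1 and in those of MAGEB3 and MAGEB4. It was not particular to MAGEB2: the 5 windows of MAGEA4 held 0, 0, 1, 2 and 2, and those of MAGEA11, MAGEC1 and MAGEC2 held 0. Nor was the CG count, since the MAGEA11 window held 18. This motif contains a CG, and 16.5% of all windows held it. The windows and the motif were picked after the levels were known. Methylation was not measured here, and a sequence match is a description only.

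Before the gene levels, some arrays need description. The array labelled AD32 4E-BP1 had the highest signal of EIF4EBP1, which encodes the translation repressor 4E-BP1, at 11.61 against 7.99 to 8.94 in AD32 and 9.47 to 10.23 in A549 in DMSO (log2 signal, the scale of all levels here). Across all genes its correlation was 0.995, 0.9882 and 0.9883 with A549 DMSO replicates 2, 3 and 4. It was 0.9787 with AD32 replicate 3, 0.9697 and 0.9688 with A549 in discodermolide, 0.9571 with A549 DMSO replicate 1, and 0.9391 and 0.9319 with AD32 replicates 2 and 1. At all 33 genes that were at least 3 log2 units higher in AD32 than in A549 in DMSO, a set chosen after the values were seen, it was nearer to A549. A549 DMSO replicate 1 stood apart from its group: the mean of 12 G2/M cell cycle genes was 7.25 in it and 10.27 to 10.41 in the other 3. The same mean was 5.40, 6.41 and 9.92 in AD32, 7.03 and 7.20 in A549 in discodermolide, and 10.21 in AD32 4E-BP1. A549 DMSO replicates 3 and 4 were nearly alike (r = 0.9974) but not identical. Epithelial keratins KRT8 and KRT18 lay between 12.67 and 14.002 on every array, and 11 of 14 measured lung-line markers were above the background reference described next on all 10 arrays. EPCAM and NKX2-1, the latter a lung lineage factor, were not above it on any. In AD32 against A549 in DMSO 1 of these 14 markers passed as higher and 1 as lower, beside 5.72% of all genes that passed. CDH1, the epithelial cadherin, was 1.11 higher in AD32 than in A549 in DMSO (SE 0.25, limma, adjusted p = 0.0357; lost under 11 of 19 alternatives), and AKR1C1, an aldo-keto reductase, was lower, at -0.90 (SE 0.20, limma, adjusted p = 0.0299; lost under 9 of 19). AKR1B10, of the same enzyme family, ran from 8.39 to 11.71 in AD32 and from 11.71 to 12.44 in A549 in DMSO. Of 8 fibroblast markers, 4 were above that reference on all 10 arrays and 2 on none. In AD32 against A549 in DMSO 1 of the 8 passed, beside 5.72% of all genes, and their median difference was -0.13. It was the collagen gene COL3A1, which fell by 2.08 (SE 0.33, limma, adjusted p = 0.00789), in 19 of 19 alternatives. Against A549 in discodermolide COL3A1 was again the 1 of 8 that passed, beside 3.74% of all genes. There it fell by 1.75 (SE 0.40, limma, adjusted p = 0.0471, lost under 13 of 19). The part of these differences in the MAGE levels was not tested.

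The deposited values carry no detection call. Olfactory receptor genes, which most cell lines do not express, were used as a rough reference for background: the 95th percentile of 360 such genes lay between 5.28 and 5.55 over the arrays. Probe sets differ in their own brightness, so this reference shows only whether a signal is as low as that of genes expected to be off.

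MAGEB2 was high in AD32 and at background level everywhere else. MAGEB2, probe set 8166611, encodes a germ cell protein known to bind RNA and to dampen stress granule formation. Its AD32 signals were 9.96, 10.09 and 10.20. In A549 in DMSO they were 3.84, 3.78, 4.25 and 4.44, in A549 in discodermolide 4.67 and 3.85, and in AD32 4E-BP1 3.73. The 3 AD32 arrays lay close together, no other array came near them, and AD32 overlapped with no other group. MAGEB2 reached percentiles 93.1 to 94 of all genes on the AD32 arrays and 8.14 to 18.8 on the other 7, and it exceeded the olfactory reference on the AD32 arrays only. These signals come from whole cultures, so a high level in all cells and a higher level in some of them cannot be told apart.

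The AD32 mean of MAGEB2 was 10.08 ± 0.12 (SD, n = 3) against 4.08 ± 0.32 (SD, n = 4) in A549 in DMSO. This is a log2 difference of 6.005, or 64.2-fold in signal, and it was the 2nd largest rise among 18279 genes. MAGEB2 was chosen for this rise, so no interval is given and the rank is part of that choice. Against A549 in discodermolide, with a mean of 4.26 (SD 0.58, n = 2), the difference was 5.82, or 56.5-fold, again the 2nd largest rise. The gap was present against A549 both with and without the drug, whereas AD32 was measured only in the drug. As the lower signal of each pair is at background level, the ratio of transcripts need not equal the ratio of signals. Without A549 DMSO replicate 1 the difference from A549 in DMSO was 5.92, and without AD32 replicate 3 it was 5.95.

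Discodermolide in A549 was not accompanied by a detectable change of MAGEB2. The difference between A549 in discodermolide and in DMSO was 0.18 (SE 0.26, 95% interval -0.41 to 0.78, limma, adjusted p = 0.886 over all genes), and the array ranges overlapped. Nor did the AD32 4E-BP1 array differ from A549 in DMSO beyond the spread, at -0.35 (SE 0.34, interval -1.12 to 0.41, limma, adjusted p = 1). Against AD32 the difference was -6.36, the largest fall of signal among all genes in that comparison. It rests on 1 array with MAGEB2 at background level, so the ratio of transcripts is not known. AD32 entered the choice of MAGEB2, so no test or interval is given. Placed between the A549 DMSO mean and the AD32 mean, MAGEB2 in this array sat at -5.87% of the way, and the 33 AD32-high genes, MAGEB2 included, sat at a median of 1.27% (range -19.42% to 34.003%). The low level of MAGEB2 in AD32 4E-BP1 therefore cannot be told apart from the general position of that array.

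Of the 6 singly measured members other than MAGEB2, 0 passed an adjusted p of 0.05 by limma in AD32 against A549 in DMSO, where 5.72% of all 18279 genes passed, and 1 of 6 (MAGEA4) was under an unadjusted p of 0.05. Against A549 in discodermolide 0 of 6 passed, beside 3.74% of all genes. For A549 in discodermolide against DMSO 0 of 6 passed, beside 0.372%. For AD32 4E-BP1 the count was 0 of 6 both against AD32, beside 0.919% of all genes, and against A549 in DMSO, beside 0% (208 genes at an unadjusted p below 0.05). In these last 4 comparisons limma gave 0 of 6 at an unadjusted p below 0.05. With 6 genes, counts of 0 are near these background shares. These comparisons share arrays and are not independent.

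**Figure D1:**
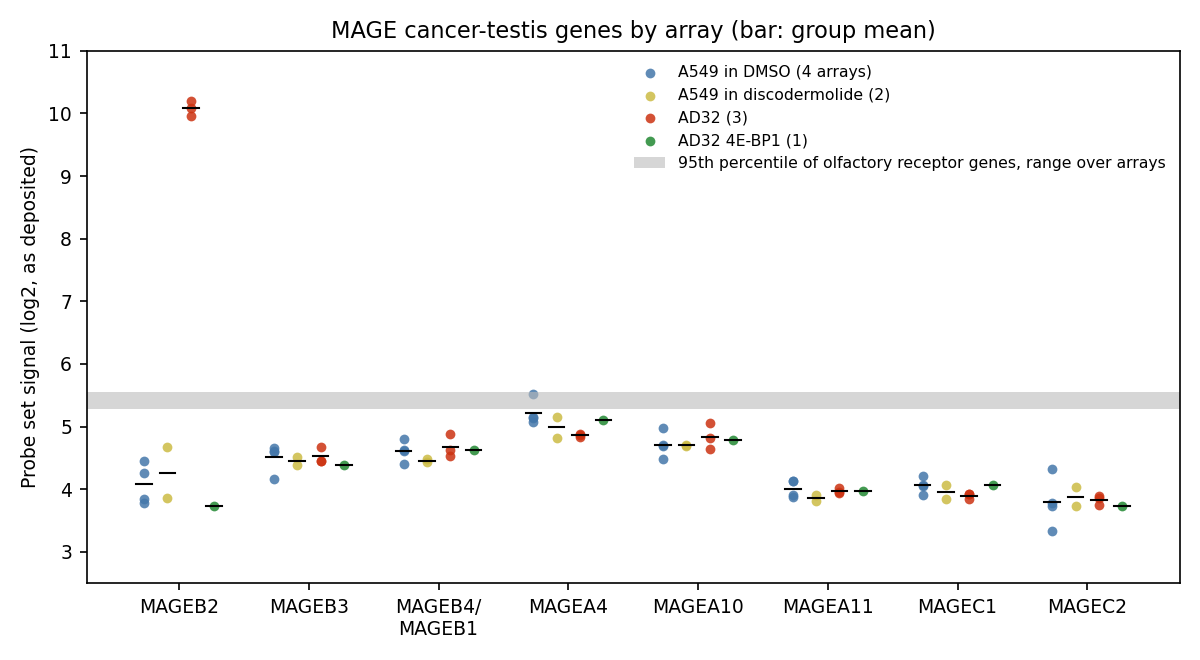
Log2 signal of the 8 member probe sets on each of the 10 arrays, by group; bars are group means and the grey band is the range over arrays of the 95th percentile of 360 olfactory receptor genes. MAGEB2 on the AD32 arrays lies between 9.96 and 10.20, and every other point lies between 3.33 and 5.51.

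The other members of the MAGEB cluster did not follow MAGEB2. MAGEB3, probe set 8166613, is a germline-restricted paralog and the next measured gene along X. Its signals were 4.62, 4.66, 4.17 and 4.59 in A549 in DMSO, 4.38 and 4.51 in A549 in discodermolide, 4.45, 4.67 and 4.45 in AD32, and 4.38 in AD32 4E-BP1. The groups overlapped, and AD32 differed from A549 in DMSO by 0.01 (SE 0.15, 95% interval -0.33 to 0.36, limma, adjusted p = 0.98). The upper bound of this interval was far below the MAGEB2 difference, although a silent gene and a weakly expressed one can give the same signal near background.

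MAGEB4 and MAGEB1, both normally testis-expressed, were read together from probe set 8166619. It gave 4.80, 4.62, 4.41 and 4.60 in A549 in DMSO, 4.48 and 4.43 in A549 in discodermolide, 4.88, 4.62 and 4.53 in AD32, and 4.63 in AD32 4E-BP1. AD32 replicate 1 was the highest, but AD32 and A549 in DMSO overlapped. In a fit of all probe sets the difference was 0.07 (SE 0.14, 95% interval -0.24 to 0.38, limma, adjusted p = 0.87), and against A549 in discodermolide it was 0.23 (interval -0.14 to 0.59, limma, adjusted p = 0.674). MAGEB1 has a promoter window much like that of MAGEB2, shown above, but a rise of MAGEB1 alone was not measured apart from MAGEB4.

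MAGEA4, probe set 8170531, encodes a tumour antigen used as a target of T cell therapy. It was the member whose difference went furthest in the other direction. Signals were 5.51, 5.14, 5.07 and 5.15 in A549 in DMSO, 4.83 and 5.15 in A549 in discodermolide, 4.87, 4.88 and 4.83 in AD32, and 5.11 in AD32 4E-BP1. All AD32 arrays lay below all A549 DMSO arrays, which was so, in one direction or the other, for 15.4% of all genes, and it was the only such case among the 7 member probe sets other than that of MAGEB2. The difference was -0.36 (SE 0.14, 95% interval -0.69 to -0.03, limma, adjusted p = 0.214), which did not pass, and it was -0.26 without A549 DMSO replicate 1 (adjusted p = 0.217). That replicate was the only array on which MAGEA4 passed the olfactory reference.

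The remaining MAGEA members were low on every array. MAGEA10, probe set 8175690, also a tumour antigen, gave 4.98, 4.70, 4.69 and 4.48 in A549 in DMSO, 4.69 and 4.71 in A549 in discodermolide, 5.06, 4.65 and 4.81 in AD32, and 4.78 in AD32 4E-BP1. MAGEA11, probe set 8175629, a coregulator of the androgen receptor, gave 4.12, 3.90, 4.13 and 3.88 in A549 in DMSO, 3.91 and 3.81 in A549 in discodermolide, 4.02, 3.94 and 3.95 in AD32, and 3.97 in AD32 4E-BP1. Both overlapped between AD32 and A549 in DMSO, with differences of 0.13 (95% interval -0.22 to 0.48) and -0.04 (95% interval -0.30 to 0.23).

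MAGEC1 and MAGEC2 are cancer-testis antigens often found in myeloma and melanoma, and MAGEC2 is a binding partner of the ubiquitin ligase TRIM28. MAGEC1, probe set 8170273, gave 4.21, 3.91, 4.07 and 4.05 in A549 in DMSO, 3.85 and 4.07 in A549 in discodermolide, 3.93, 3.84 and 3.93 in AD32, and 4.06 in AD32 4E-BP1. MAGEC2, probe set 8175562, gave 4.32, 3.73, 3.78 and 3.33 in A549 in DMSO, 4.03 and 3.73 in A549 in discodermolide, 3.89, 3.75 and 3.86 in AD32, and 3.73 in AD32 4E-BP1. The AD32 differences from A549 in DMSO were -0.16 for MAGEC1 (95% interval -0.43 to 0.11) and 0.04 for MAGEC2 (95% interval -0.44 to 0.53), with overlapping arrays. MAGEC2 had the widest range over the 10 arrays among these probe sets, 0.99, and both ends of it were A549 DMSO arrays.

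Over the 7 member probe sets other than that of MAGEB2, levels ran from 3.33 to 5.51 and each varied by 0.32 to 0.99 over the arrays. Their AD32 differences from A549 in DMSO lay between -0.36 and 0.13, 0 of 7 passed, and the 95% intervals together spanned -0.69 to 0.53. In signal this allows a rise of at most 1.44-fold and a fall of at most 1.61-fold. Against A549 in discodermolide the differences lay between -0.13 and 0.23, with intervals from -0.62 to 0.60. For A549 in discodermolide against DMSO they lay between -0.23 and 0.09. In AD32 4E-BP1 relative to AD32 the span was -0.14 to 0.25. The lowest adjusted p in any of these was 0.214. A p that misses the threshold does not show equal levels, and signals this close to background may understate a change.

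**Figure D2:**
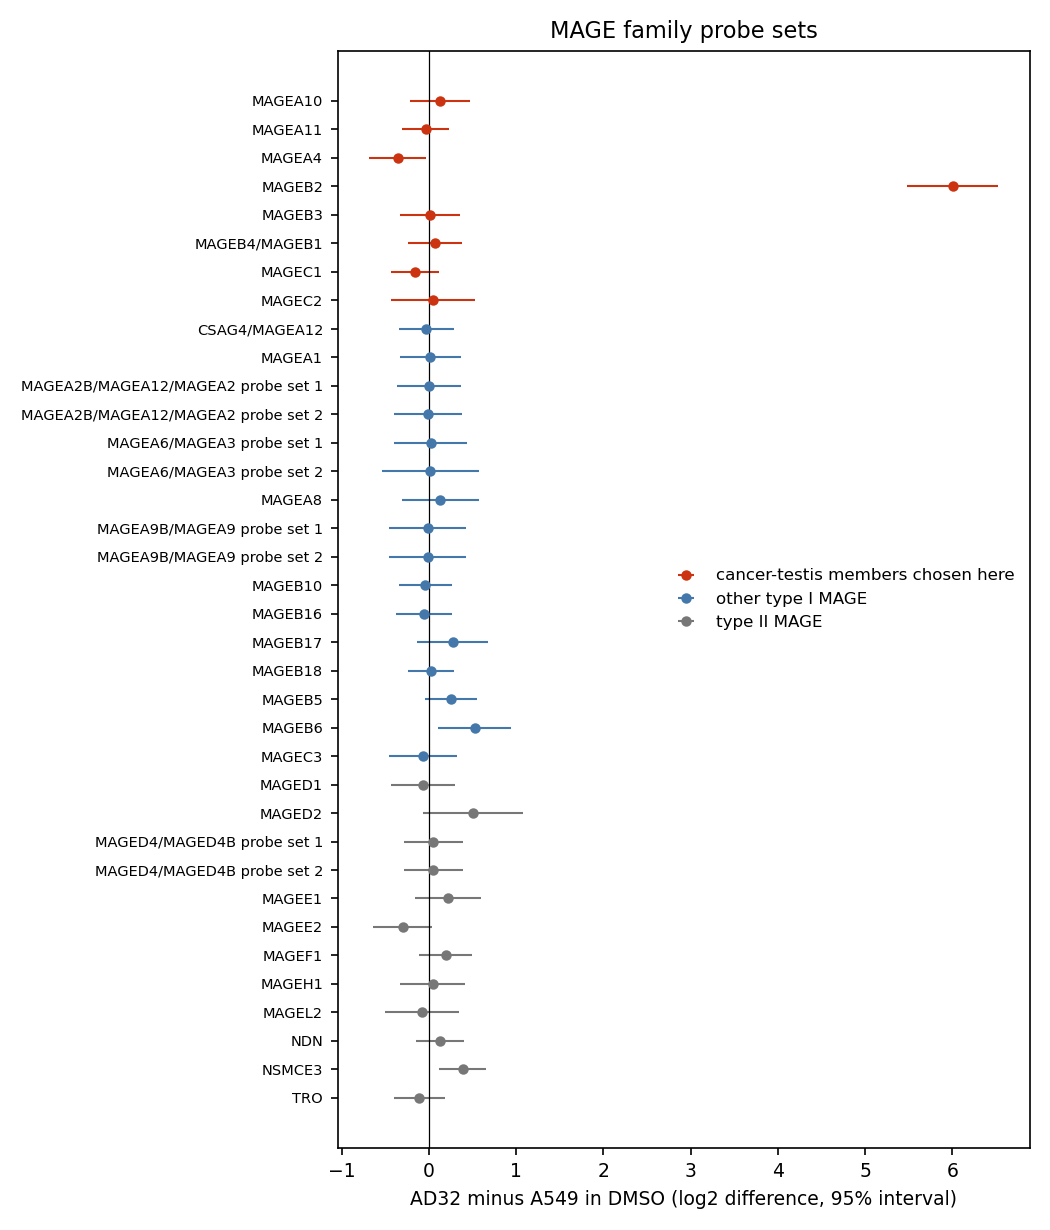
Log2 difference of AD32 from A549 in DMSO, with 95% intervals from limma, for all 36 MAGE probe sets; colours mark the members, other type I and type II genes. MAGEB2 stands at 6.005, and every other probe set lies between -0.36 and 0.53. MAGEB2 was chosen for this difference, so its interval is no test.

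No other MAGE gene, type I or type II, passed in any of the 5 comparisons. Over all genes 5.72%, 3.74%, 0.372%, 0.919% and 0% passed, in the order given above. Of 19 other type I genes listed, 9 had a probe set of their own, and 0 of 9 passed in any of the 5 comparisons; at an unadjusted p below 0.05 limma gave 1 of 9 in AD32 against A549 in DMSO, 1 in AD32 against A549 in discodermolide and 0 in the other 3. Their median AD32 difference from A549 in DMSO was 0.02, beside 0.01 over all genes. In AD32 against A549 in DMSO the unadjusted case was MAGEB6, which was singled out after its values were seen. MAGEB6 lies 6 measured genes from MAGEB2 along X, outside the cluster of MAGEB1 to MAGEB4. It gave 5.24, 5.09 and 5.26 in AD32, 4.46, 5.10, 4.76 and 4.35 in A549 in DMSO, 4.91 and 5.08 in A549 in discodermolide, and 5.23 in AD32 4E-BP1. Its AD32 arrays overlapped with A549 DMSO replicate 2, the difference was 0.53 (SE 0.18, limma, adjusted p = 0.148), and it stayed under the olfactory reference throughout.

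Some type I MAGEA probe sets were above the olfactory reference on every array and did not pass in AD32 against A549 in DMSO. That position alone does not show expression, since the germ cell markers SOX17 and NANOS3 also lay above the reference on every array. MAGEA8 ranged from 6.96 to 7.71, with an AD32 difference of 0.13 from A549 in DMSO (95% interval -0.31 to 0.57). The brighter probe set shared by MAGEA6 and MAGEA3, well-known tumour antigens, ranged from 6.30 to 7.04, with a difference of 0.02 (95% interval -0.39 to 0.44). Both genes were named after their values were seen. A549 DMSO replicate 1 was the highest array for 8 of 12 MAGEA probe sets but for 1 of the 5 that name a single gene, a count also made afterwards; probe sets that name several genes share sequences and are not independent.

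Of the type II genes, MAGED1, MAGED2, MAGEF1, MAGEE1 and NSMCE3 were above the olfactory reference on all 10 arrays. By limma 0 of 10 measured passed in any comparison, with 1, 1, 2, 1 and 0 under an unadjusted p of 0.05 (AD32 against A549 in DMSO and in discodermolide, A549 in discodermolide against DMSO, AD32 4E-BP1 against AD32, and AD32 4E-BP1 against A549 in DMSO). Over all genes 5.72%, 3.74%, 0.372%, 0.919% and 0% passed, in the same order. With 10 genes, counts of 0 are near these background shares. MAGED1, an adaptor in p75 neurotrophin receptor signalling, was at 10.00, 10.32 and 10.61 in AD32, between 10.22 and 10.55 in A549 in DMSO, 11.02 on both discodermolide arrays and 10.61 in AD32 4E-BP1. The discodermolide arrays were the highest of all, 0.65 above A549 in DMSO (SE 0.18, limma, adjusted p = 0.22). MAGED2, which is needed for renal salt transport before birth, was at 10.59 and 10.54 on the discodermolide arrays, 10.34, 10.34 and 9.61 in AD32, 9.14 to 10.11 in A549 in DMSO and 9.27 in AD32 4E-BP1. Its discodermolide difference from DMSO was 0.97 (SE 0.29, limma, adjusted p = 0.24). The type II gene with the lowest p in AD32 against A549 in DMSO was NSMCE3, a subunit of the SMC5/6 complex, with a difference of 0.39 (SE 0.12, limma, adjusted p = 0.1). These 3 were singled out after the values were seen.

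The other cancer-testis genes that were measured singly did not rise as a group. Of 59 other X-linked genes listed, among them the GAGE, SSX and NY-ESO-1 families, 32 were measured singly. The rest had no probe set of their own and were not counted, so these families may be covered only in part. In each of the 5 comparisons 0 of 32 passed, beside 5.72%, 3.74%, 0.372%, 0.919% and 0% of all genes in the order used above. The median AD32 difference of these 32 genes from A549 in DMSO was 0.03, with a range of -0.23 to 0.42. At an unadjusted p below 0.05 limma gave 0, 1, 3, 0 and 0 of them, with the comparisons in the same order. Of 35 measured autosomal cancer-testis genes, 1 passed in AD32 against A549 in DMSO, beside 5.72% of all genes, and 0 in the other 4 comparisons (2, 2, 0 and 1 at an unadjusted p below 0.05 by limma). It was ZNF165, a zinc finger transcription factor, at 4.91, 5.63 and 5.81 in AD32 and 4.24 to 4.69 in A549 in DMSO, a difference of 0.89 (SE 0.22, limma, adjusted p = 0.0492). That call was lost under 14 of 18 alternatives. PRAME, a repressor of retinoic acid receptor signalling, was high on every array, 9.79 to 10.65, and did not pass (difference 0.11, SE 0.18). CTCFL, the testis paralog of CTCF, was also above background throughout, at 7.28 to 8.79, with a difference of -0.68 (limma, adjusted p = 0.236).

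Germ cell markers did not pass either. Of 13 measured, 0 passed in any comparison (0, 1, 0, 0 and 0 at an unadjusted p below 0.05 by limma). Over all genes 5.72%, 3.74%, 0.372%, 0.919% and 0% passed, with the comparisons in the same order. With 13 genes, counts of 0 are near these background shares. The mean level of the 13 ran from 5.16 to 5.45 in AD32 and from 5.18 to 5.44 in A549 in DMSO. On all 10 arrays 5 of the 13 were under the olfactory reference, namely the germ cell genes DDX4, DAZL, SYCP3, STRA8 and TNP2, and 5 were above it, namely ACR, SOX17, NANOS2, NANOS3 and SOHLH1.

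Among 17 measured genes of MAGE partners and substrates, 2 rose in AD32 against A549 in DMSO and 0 fell. Over all genes 5.72% passed in this comparison. The list's median was -0.13, beside 0.01 over all genes. TRIM31, a RING ubiquitin ligase reported in a complex with MAGEA1, gave 9.57, 9.55 and 8.37 in AD32, 5.85, 6.23, 5.09 and 5.48 in A549 in DMSO, 6.67 and 6.91 in A549 in discodermolide, and 4.98 in AD32 4E-BP1. The AD32 arrays did not overlap with any other. TRIM31 rose by 3.50 (SE 0.35, limma, adjusted p = 0.000663), or 11.3-fold, and passed in 19 of 19 alternatives. Against A549 in discodermolide it rose by 2.38 (SE 0.41, limma, adjusted p = 0.0156), a call lost without discodermolide replicate 1 (adjusted p = 0.147), discodermolide replicate 2 (adjusted p = 0.118), AD32 replicate 1 (adjusted p = 0.0545) or AD32 replicate 2 (adjusted p = 0.053). In AD32 4E-BP1 it fell by 4.18 from AD32 (SE 0.52, limma, adjusted p = 0.00682), a call lost in a fit of those 2 groups alone (adjusted p = 0.15). This rests on 1 array, and as with MAGEB2 it cannot be told apart from the general position of that array.

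The other partner gene that passed was PJA1, a ubiquitin ligase that binds MAGED1, 0.71 higher in AD32 than in A549 in DMSO (SE 0.16, limma, adjusted p = 0.0307; lost under 12 of 19 alternatives). TRIM28, the ligase bound by MAGEC2 and MAGEA3, differed by 0.03 (SE 0.30, limma, adjusted p = 0.978). G3BP1, the stress granule protein whose synthesis MAGEB2 is known to limit, differed by -0.47 (SE 0.31, limma, adjusted p = 0.479). Its signals of 10.89, 10.99 and 12.03 in AD32 overlapped with 11.16 to 12.06 in A549 in DMSO, and in both groups the arrays with low G2/M means were the low ones.

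The next list held 38 measured genes linked to germline gene silencing, DNA demethylation genes of the TET family among them. Of these 38, 2 rose in AD32 against A549 in DMSO and 0 fell, beside 5.72% of all genes that passed. The list's median was -0.05. MBD1, a methyl-CpG-binding repressor, gave 9.99, 10.11 and 9.39 in AD32, 8.32, 8.48, 8.55 and 8.41 in A549 in DMSO, 8.86 and 8.77 in A549 in discodermolide and 8.50 in AD32 4E-BP1. It rose by 1.39 (SE 0.18, limma, adjusted p = 0.00286), with no overlap, in 19 of 19 alternatives. Against A549 in discodermolide the rise of 1.01 (SE 0.21, limma, adjusted p = 0.0345) was lost under 11 of 19 alternatives. ATF7IP, which links MBD1 to the histone methyltransferase SETDB1, rose by 0.62 (SE 0.15, limma, adjusted p = 0.0478), lost under 14 of 19.

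The maintenance methylation genes did not pass. DNMT1, the maintenance DNA methyltransferase, was at 7.29, 7.81 and 9.66 in AD32 and 7.59, 9.76, 9.41 and 9.37 in A549 in DMSO, a difference of -0.78 (SE 0.63, limma, adjusted p = 0.591). UHRF1, which recruits DNMT1 to newly copied DNA, differed by -1.03 (SE 0.44, limma, adjusted p = 0.232), and DNMT3B, a de novo methyltransferase, by -0.19 (SE 0.46, limma, adjusted p = 0.901). All 3 were lower on the AD32 arrays 1 and 2 and on A549 DMSO replicate 1, the arrays with low G2/M means, than on AD32 replicate 3; the part of the cell cycle genes in these values was not tested.

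None of the genes beside MAGEB2 showed a rise like its own, although many of them were near background, where a change can be missed. Of the 10 measured genes on each side on X, 2 of 20 passed in AD32 against A549 in DMSO, beside 5.72% of all genes. In the other 4 comparisons 0 of 20 passed, beside 3.74%, 0.372%, 0.919% and 0% of all genes. At an unadjusted p below 0.05 limma gave 3, 2, 2 and 0 of 20 there. The median difference of AD32 from A549 in DMSO was -0.04. The nearest, IL1RAPL1 on one side and MAGEB3 on the other, differed by -0.16 and 0.01. Both averaged under the olfactory reference in AD32 and in A549 in DMSO (IL1RAPL1 4.64 and 4.805, MAGEB3 4.52 and 4.51). TAB3, an adaptor of the kinase TAK1, rose by 0.77 (SE 0.12, limma, adjusted p = 0.00754) and passed in 19 of 19 alternatives. Its means were 8.13 in AD32, 8.04 in A549 in discodermolide and 7.36 in A549 in DMSO. The part of the drug in these levels was not tested. CFAP47, a cilium protein, fell by 0.97 (SE 0.20, limma, adjusted p = 0.0205), lost under 5 of 18 alternatives: without A549 DMSO replicate 2 (adjusted p = 0.0559), 3 (0.0689) or 4 (0.0647), without AD32 replicate 1 (0.0712), or with A549 DMSO replicates 3 and 4 averaged (0.0659).

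**Figure D3:**
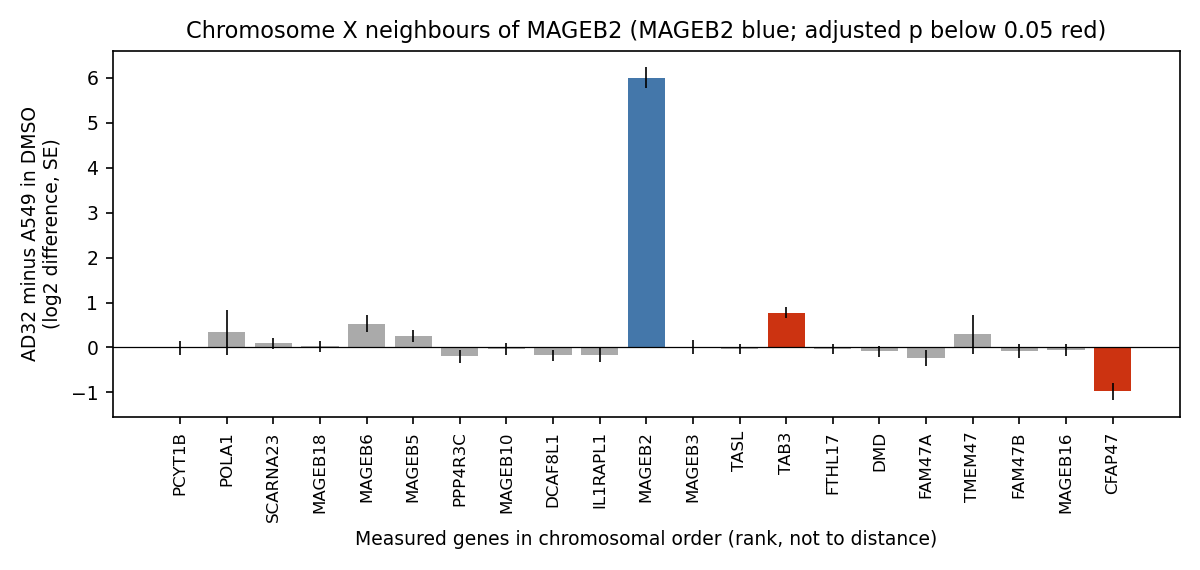
Log2 difference of AD32 from A549 in DMSO, with SE, for MAGEB2 (blue) and the 10 measured genes on each side in chromosomal order. MAGEB2 stands at 6.005 and its 20 neighbours lie between -0.97 and 0.77; red marks the 2 neighbours that passed.

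None of the genes most like MAGEB2 was among these neighbours. Of 174 genes with a range of at least 4 units over the arrays, the 5 with the highest correlation to MAGEB2 over 10 arrays were FSTL1 (r = 0.9944), CLTRN (r = 0.9933), NEO1 (r = 0.9918), NID2 (r = 0.991) and KRT7 (r = 0.9904). The points are 4 groups rather than 10 independent conditions, and the separation of AD32 from the rest sets these values. FSTL1, a secreted glycoprotein, averaged 10.04 ± 0.22 (SD, n = 3) in AD32 and 5.67 ± 0.15 (SD, n = 4) in A549 in DMSO. CLTRN, a membrane protein that aids amino acid transport, averaged 8.90 ± 0.54 (SD, n = 3) and 4.19 ± 0.20 (SD, n = 4). NEO1, a receptor for netrins and repulsive guidance molecules, averaged 9.39 ± 0.26 (SD, n = 3) and 5.41 ± 0.16 (SD, n = 4). NID2, a basement membrane protein, averaged 9.80 ± 0.21 (SD, n = 3) and 5.96 ± 0.53 (SD, n = 4). KRT7, a keratin of simple epithelia, averaged 11.78 ± 0.05 (SD, n = 3) and 7.13 ± 0.19 (SD, n = 4). Each was lower on both discodermolide arrays and in AD32 4E-BP1 than on any AD32 array. KRT7 was still at 7.35 to 7.45 there and NID2 at 5.75 to 6.56, above the olfactory reference, unlike MAGEB2 at 3.73 to 4.67. FSTL1 was above it on discodermolide replicate 1 (5.85) and AD32 4E-BP1 (5.55) but not on discodermolide replicate 2 (5.37). NEO1 was above it on discodermolide replicate 1 only (5.65), and CLTRN on none of these arrays. None of the 5 is in the MAGE, cancer-testis or germ cell lists.

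**Figure D4:**
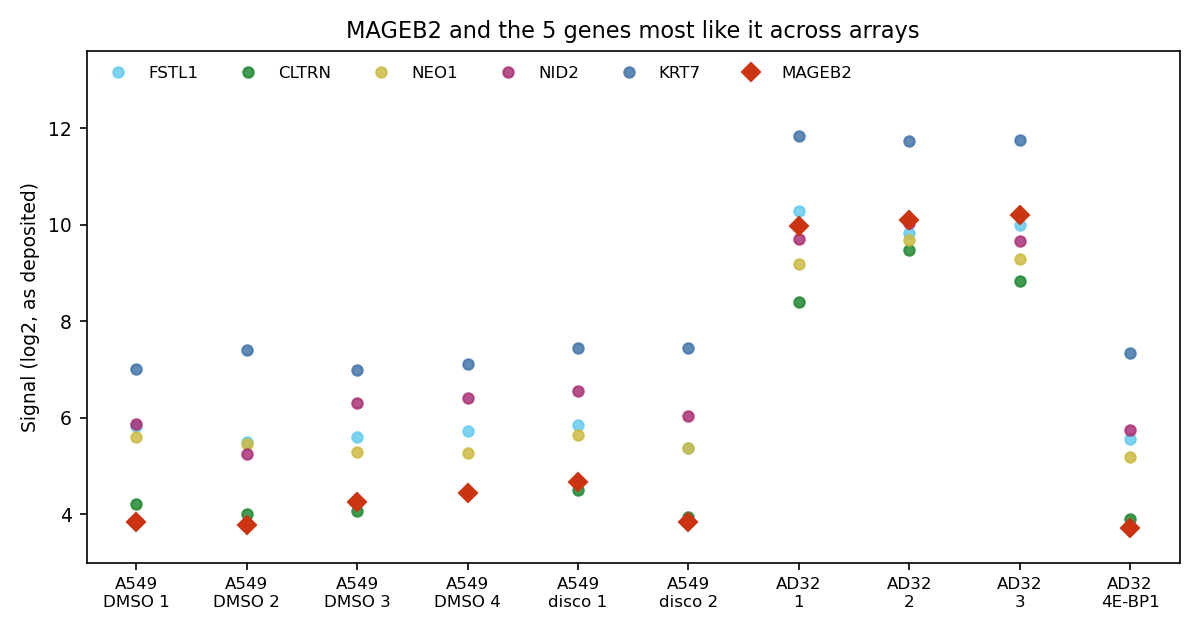
Log2 signal of MAGEB2 and of the 5 genes most like it on each of the 10 arrays. All 6 are high on the 3 AD32 arrays, between 8.40 and 11.84, and lower on the other 7, between 3.73 and 7.45.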

How the data were processed

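Per the labels' protocols, RNA was labelled by the standard Affymetrix procedure. The deposited log2 values came from Affymetrix Expression Console according to the submitters' processing notes. Neither its version nor its normalization is stated, and the log2 scale was inferred from the range of the values. Precision is limited by the number of arrays. In the platform annotation 19262 probe sets name 1 gene, 1720 several and 3326 none here. Each of 18279 genes was represented by its probe set of highest mean, and probe sets naming several genes were fitted over all 24308.

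Tests used lmFit and eBayes of limma 3.58.1 in R 4.3.3 over all 10 arrays, with groups taken from the labels, 1 shared spread (6 residual degrees of freedom), two-sided p-values adjusted by Benjamini-Hochberg over every gene and a threshold of 0.05. The lone AD32 4E-BP1 array was assumed to vary like the others. The members, lists and tests were chosen with earlier results of these data known. A test of MAGEB2 in AD32 4E-BP1 against AD32 was set down but is not printed, since AD32 entered its choice. Named genes were all members, other MAGE genes that passed, up to 4 per direction of each other list with the smallest p among those that passed, the 5 most like MAGEB2, and TRIM28, G3BP1, DNMT1, DNMT3B, UHRF1, CTCFL and PRAME; others are stated as chosen later.

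Same-numbered AD32 and A549 DMSO arrays did not deviate together throughout (correlations of deviations 0.68, -0.26 and 0.41 for numbers 1 to 3), so numbers were not taken to pair arrays. Alternatives were median centring, quantile normalization, leaving out the 33.3% of genes with the lowest means, a trended robust prior, array weights, the 2 compared groups alone (run for all 5 comparisons, the lone-array ones included), averaging a gene's probe sets, all probe sets, the replicate block, each replicate left out, and A549 DMSO replicates 3 and 4 averaged. Promoter windows and gene order are RefSeq's for GRCh38.p14, and windows were aligned with Biopython 1.88 in Python 3.11.15. Figures used matplotlib 3.10.9.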

Additional observations from a re-analysis of the deposited data

Results flagged for a closer look

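Of 51 gene and group combinations checked, 4 held an array in A549 in DMSO that lay far from the other 3; chance marks about 1 in 20. A549 DMSO replicate 1 gave 6.02 for the 2nd probe set shared by MAGEA2B, MAGEA12 and MAGEA2, with the nearest array at 5.55. It gave 11.16 for G3BP1, with the nearest at 11.92, and 4.24 for ZNF165, with the nearest at 4.62. A549 DMSO replicate 3 gave 4.17 for MAGEB3, with the nearest at 4.59. The first 3 lie on the array whose G2/M mean also stood apart at 7.25; the part of this in the values was not tested.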

How the results depend on the processing

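No singly measured paralog passed the threshold in any of the 5 comparisons under any of the 19 alternatives that gave it a value. The probe set of MAGEB4 and MAGEB1 did not pass in the comparisons with AD32 under the 14 alternatives that gave it a value. MAGEB2 did not pass in A549 in discodermolide against DMSO or in AD32 4E-BP1 against A549 in DMSO. Its differences from AD32 are given with no call, since it was chosen for its AD32 level. The MAGEB2 difference of AD32 from A549 in DMSO ran from 5.76 to 6.13. From A549 in discodermolide it ran from 5.41 without discodermolide replicate 2 to 6.23 without discodermolide replicate 1, more than the residual SD of 0.34 on either side; the array left in that group is assumed to vary like the others. The difference of A549 in discodermolide from DMSO, which did not pass, ran from -0.23 to 0.59 and changed sign with array weights and without discodermolide replicate 1. With the replicate block the MAGEB2 differences were 6.13 and 5.72, and the block changed no call of a singly measured paralog. Removing the lowest genes left MAGEB2 alone of the 7 singly measured members, so that setting gives no value for the paralogs. The paralogs' levels lie near background, where arrays show differences poorly, and both discodermolide and 4E-BP1 groups rest on few arrays.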
